A study of Mus musculus with 6 samples.

Results

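Glucuronosyltransferase genes of the Ugt2b family were followed in the anterior prostate (AP) of mice with and without over-activated Notch1. The 7 genes, Ugt2b1, Ugt2b5, Ugt2b34, Ugt2b35, Ugt2b36, Ugt2b37 and Ugt2b38, were selected by gene symbol from the 55076 rows of the deposited tables, and they were chosen with the difference of these same mice already known, so their differences between groups are given as a description with no test. They were all the rows with a Ugt2b symbol. Total RNA of whole AP from 20-week-old males was sequenced, taken from the sample labels as 1 library per mouse and 3 mice per group. The over-expressing group (OEx) carried Pbsn-Cre and 1 Rosa26 N1ICD allele. The control group (Ctrl), called wild type in the sample labels, is described in the study as carrying the same Rosa26 N1ICD allele without Pbsn-Cre. The Cre is driven by the promoter of probasin, a secretory protein of prostate epithelium, so the intracellular domain of Notch1 (N1ICD) is expressed in epithelial cells, while stromal and other cells of the AP are in the library too. Nothing in the labels says whether mice of a group were littermates.

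UDP-glucuronosyltransferases of the endoplasmic reticulum transfer glucuronic acid from UDP-glucuronate to small lipophilic molecules. The UGT2B subfamily is known for conjugating steroids, among them androgens, and the glucuronides are water-soluble, mostly inactive as hormones and exported from the cell. Liver is the best known site of these enzymes, and human prostate is known to carry UGT2B enzymes that conjugate dihydrotestosterone and its metabolites.

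The libraries held between 14772005 and 18655462 reads on annotated genes, as recovered from the FPKM values, the number of fragments on a gene per kilobase of its exons, scaled to a library size that the authors set. All 7 luminal AP markers on the list had reads. Their sum was 2908 to 6204 FPKM in OEx mice and 31644 to 35893 FPKM in Ctrl mice. In OEx mice the highest of them was Pbsn, at 2064, 1795 and 4497 FPKM. Ren1 was at 0.0908, 0.0528 and 47.0 FPKM in OEx and 11079, 11093 and 6630 FPKM in Ctrl mice. Tgm4 was at 90.7, 92.3 and 444.8 FPKM in OEx and 8207, 8280 and 4610 FPKM in Ctrl mice. Reads on this list therefore do not show that the OEx gland kept the AP pattern. Libraries of replicate 3 stood apart in both groups. Ctrl 3 carried seminal vesicle transcripts. The 8 markers, each with reads in at least 1 of the 6 mice, summed to 16128 FPKM in Ctrl 3 against at most 4.36 FPKM in the other 2 Ctrl mice. OEx 3 had less stromal and immune RNA than OEx 1 and OEx 2, with Col1a1 at 6.04 FPKM against 75.4 and 83.7 FPKM and Lyz2 at 7.79 FPKM against 171.5 and 155.0 FPKM. Values without these mice are given with each Ugt2b result they move. Notch1, whose values do not separate the transgene from the gene itself, was at 41.9, 47.6 and 78.9 FPKM in OEx mice and 5.18, 5.55 and 3.34 FPKM in Ctrl mice.

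Ugt2b35 and Ugt2b34 were far higher in OEx than in Ctrl mice, Ugt2b1 was found in OEx mice only at a low level, and the other 4 Ugt2b genes had no read in any mouse. Both abundant genes lay higher in every OEx mouse than in every Ctrl mouse. In whole tissue, fewer cells that express a gene and less RNA per cell cannot be told apart, so these values describe the AP as a whole.

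Ugt2b35 (ENSMUSG00000035811.10, GRCm38 chromosome 5, 87000860 to 87013275, plus strand, 6 exon blocks after merging its transcripts) was at 54.4, 49.5 and 123.7 FPKM in OEx 1, OEx 2 and OEx 3. In Ctrl 1, Ctrl 2 and Ctrl 3 it was at 0.167, 0.161 and 0.353 FPKM. Behind these values stood 3643, 3806 and 7502 reads in the OEx group and 7, 7 and 18 reads in the Ctrl group. The groups were far apart, since the lowest OEx mouse was 140.5 times the highest Ctrl mouse, and within each group replicate 3 was the highest. The OEx mean of 75.9 ± 41.5 FPKM (SD, n = 3) was 334.7 times the Ctrl mean of 0.227 ± 0.109 FPKM (SD, n = 3). It was 229.2 times without OEx 3 and 463.3 times without Ctrl 3. On the log2(FPKM + 1) scale, on which the added 1 shrinks the change of a gene this low in Ctrl mice, the difference was 5.85 (standard error 0.337). In OEx mice Ugt2b35 was the 613th, 685th and 248th most abundant of all rows, and in Ctrl mice it ranked between 15090 and 16626.

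Ugt2b34 (ENSMUSG00000029260.15, chromosome 5, 86889767 to 86906937, minus strand, 5 merged exon blocks) was at 8.06, 8.11 and 25.9 FPKM in OEx 1, OEx 2 and OEx 3. In the Ctrl mice it was at 0.352, 0.358 and 0.641 FPKM. The values rested on 693, 800 and 2018 reads in the OEx group and on 19, 20 and 42 reads in the Ctrl group. Again no Ctrl mouse reached an OEx mouse, the lowest OEx value being 12.6 times the highest Ctrl value, and replicate 3 was the highest of each group. The OEx mean of 14.0 ± 10.3 FPKM (SD, n = 3) was 31.1 times the Ctrl mean of 0.450 ± 0.165 FPKM (SD, n = 3). This ratio leaned on OEx 3 and fell to 17.9 without that mouse, while it was 39.5 without Ctrl 3. On the log2(FPKM + 1) scale the difference was 3.18 (standard error 0.423).

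Ugt2b1 (ENSMUSG00000035836.2, chromosome 5, 86916638 to 86926530, minus strand, 6 merged exon blocks) was a gene of few reads. The OEx mice had 10, 9 and 23 reads, or 0.195, 0.153 and 0.495 FPKM, and no Ctrl mouse had a read. Set against a limit of 3 reads over the 3 Ctrl mice together, its level was at least 9.35-fold higher in OEx mice, and at least 6.01-fold higher without OEx 3. These limits cover counting error only.

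Ugt2b36, Ugt2b5, Ugt2b37 and Ugt2b38 were listed at 0 in all 6 mice. At these depths 3 reads on 1 of these 4 genes would have been between 0.0637 and 0.129 FPKM, and lower levels were not detectable. A part of the transcripts of this group is shared letter for letter: of all 100-base stretches of Ugt2b5, 24.7% also occur in Ugt2b37 or Ugt2b38, and of those of Ugt2b38, 24.2% occur in Ugt2b5 or Ugt2b37. How the counting treated reads that match several genes is not given in the sources used here, but most stretches of each gene occur in no other, and these had no reads either. For the members with reads the shared part was small, 0% of the 100-base stretches of Ugt2b35 and Ugt2b1 and 0.278% of those of Ugt2b34.

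**Figure D1:**
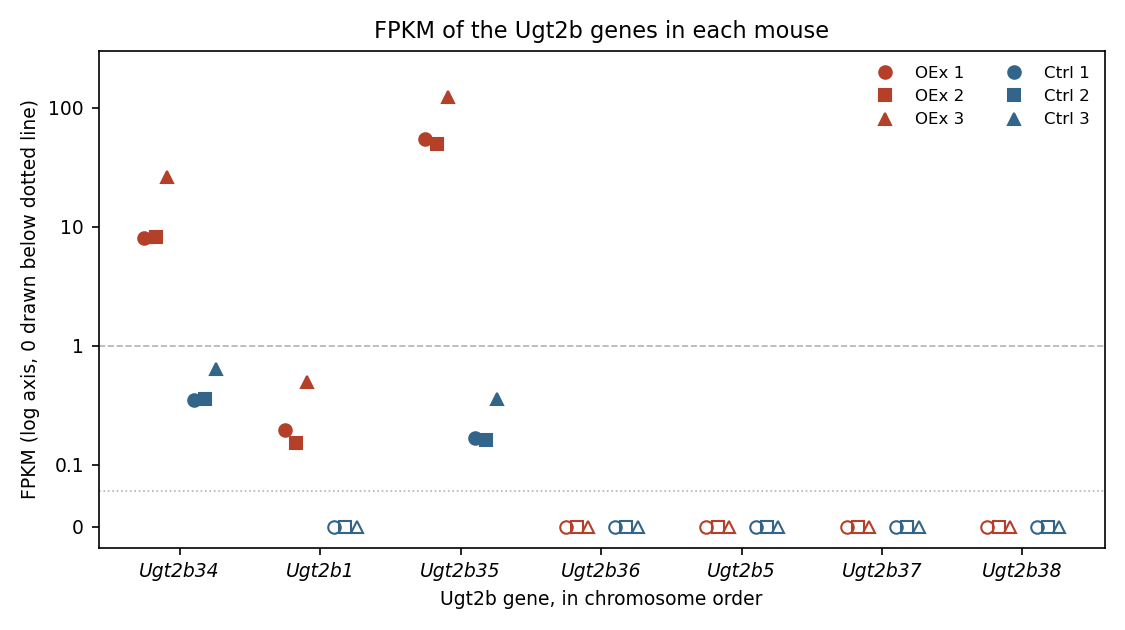
FPKM of the 7 Ugt2b genes in each mouse on a log axis, in the order of the genes on the chromosome, with OEx mice in red, Ctrl mice in blue and open symbols below the dotted line for 0; the dashed line marks 1 FPKM. Ugt2b35 at 49.5 to 123.7 FPKM and Ugt2b34 at 8.06 to 25.9 FPKM in OEx mice stand above all Ctrl mice, and 4 genes are at 0 throughout.

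Only 2 of the 7 genes, Ugt2b34 and Ugt2b35, passed the filter of a mean of at least 1 FPKM that the comparison across all genes used, and both did so through the OEx mice, which alone would make them differ. That comparison (limma on log2(FPKM + 1), 12833 rows) called a gene at a false discovery rate (FDR, Benjamini-Hochberg) under 0.05 with more than a 2-fold change. It called 1653 genes higher in OEx mice, 12.9% of those tested, and 2021 lower, 15.7%, and for 33.4% of tested genes the lowest OEx mouse was above the highest Ctrl mouse. Both Ugt2b genes met these criteria, a count that the choice of the genes decides in advance and from which nothing is read. By size of increase Ugt2b35 was 4th and Ugt2b34 66th of the tested genes. The split of all calls moved with the scaling between mice: 45.0% of called genes were higher with the deposited scaling, 64.5% with upper-quartile scaling, 69.1% with library totals that leave out the 20 most abundant genes, and 87.9% with library totals, under which the median over all tested genes went from -0.078 to 0.59 on the log2 scale. Ugt2b35 and Ugt2b34 were higher in OEx mice under each of these, with log2 differences of 6.29 and 3.64 under library totals.

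The order of the 2 abundant genes differed between the groups. FPKM is scaled by the merged length of all annotated exons of a gene, 3359 bases for Ugt2b35 and 4312 bases for Ugt2b34. The ratio of the genes within a mouse depends on these lengths, which are the same in every mouse. It does not depend on the scaling between mice. Ugt2b35 was 6.75, 6.11 and 4.77 times Ugt2b34 in OEx 1, OEx 2 and OEx 3. In the Ctrl mice Ugt2b34 was the higher gene, with Ugt2b35 at 0.473, 0.449 and 0.550 times its level. The ratios of the groups did not overlap, although those of the Ctrl mice rest on at most 42 reads a gene. Ugt2b1 was the lowest of the 3 in every OEx mouse. Among the 3 genes the step from OEx 1 and OEx 2 to OEx 3 was alike in direction: OEx 3 was 2.38 times the mean of the other 2 OEx mice for Ugt2b35, 3.21 times for Ugt2b34 and 2.85 times for Ugt2b1. Of all tested genes, 3.05% were more than 2 times higher in OEx 3 than in the mean of OEx 1 and OEx 2. Relative to Krt8, a keratin of luminal epithelium, OEx 3 also stood above the other OEx mice, with 181.4, 170.3 and 368.3 FPKM of Ugt2b35 per 1000 FPKM of Krt8 in OEx 1, OEx 2 and OEx 3 and 0.388, 0.398 and 0.854 in the Ctrl mice.

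**Figure D2:**
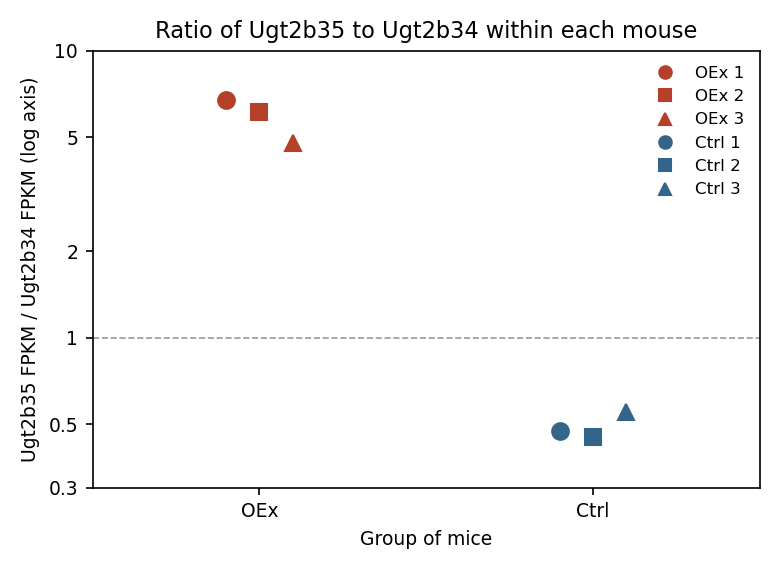
Ugt2b35 FPKM divided by Ugt2b34 FPKM in each mouse, on a log axis, with the dashed line at equal levels. The OEx mice lie between 4.77 and 6.75 and the Ctrl mice between 0.449 and 0.550.

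Ugt2b genes made up most of the summed UGT FPKM in both groups, 99.1% to 99.9% in OEx mice and 78.1% to 83.1% in Ctrl mice. Of 22 UGT rows in the tables, the 15 of other subfamilies never passed 0.451 FPKM, 9 of them had no read in any mouse and none passed the filter. Ugt1a7c was the highest of these, at 0.451, 0.394 and 0.0788 FPKM in OEx mice and 0.0379, 0.128 and 0.156 FPKM in Ctrl mice, so the groups overlapped. Genes of the Ugt1a locus share their last exons, and reads there cannot be given to 1 of them. Ugt2b35 alone was 82.3% to 86.0% of the summed UGT FPKM of an OEx mouse and 24.2% to 29.5% of that of a Ctrl mouse, where the sum was only 0.627 to 1.20 FPKM against 58.3 to 150.4 FPKM in OEx mice.

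The 7 genes lie in 1 cluster of 534.4 kb on chromosome 5, and the 3 with reads were the 3 next to each other at its left end, in the order Ugt2b34, Ugt2b1, Ugt2b35. Ugt2b35 is the only one of the 7 on the plus strand. Between the outer members the annotation has 19 other genes and pseudogenes in the tables, of which 14 had no read in any mouse. All 5 with reads lie between Ugt2b1 and the region just past Ugt2b35. Of these, the processed pseudogene Gm18635, which lies 884 bases beyond the end of Ugt2b35 on the same strand, had 33, 49 and 111 reads in OEx mice and none in Ctrl mice. Against 3 reads over the Ctrl group it was at least 43.0-fold higher, a description with no test, since it passed the filter through the OEx mice alone. Its FPKM was 2.87%, 4.08% and 4.69% of that of Ugt2b35 in the OEx mice, and whether its reads come from transcripts of Ugt2b35 was not tested. On the other side, the processed pseudogene Gm5869, which ends 2444 bases before the start of Ugt2b35, had 50, 84 and 73 reads in the OEx and 65, 66 and 77 in the Ctrl group. Its FPKM was lower in OEx (1.99, 2.92 and 3.22) than in Ctrl mice (4.13, 4.06 and 4.03) without a call (log2 difference -0.47, limma FDR 0.0253). This direction depends on the deposited scaling, whose denominator per read was 1.22 to 1.34 in OEx and 0.726 to 0.815 in Ctrl mice. Neither pseudogene resembled a Ugt2b transcript in a search with blastn, and both were picked after their values were seen. Inside the cluster and within 1 Mb on either side 36 further protein-coding genes are in the tables, of which 26 had no read, 4 were tested and 1 was called: Ythdc1, a reader of methylated adenosine in RNA, was at 7.19, 7.07 and 6.66 FPKM in OEx and 2.37, 2.61 and 2.70 FPKM in Ctrl mice (1.16 ± 0.0874 on the log2 scale, fold change ± standard error, limma FDR 7.74e-05). Cenpc1 and Uba6 were also higher in every OEx mouse, with mean FPKM 2.74 and 3.05 times that of Ctrl against 2.72 for Ythdc1. Their log2 differences of 0.84 and 0.85 (limma FDR 0.00106 and 7.22e-04) were under the required fold. The remaining tested gene, Sult1e1, overlapped between the groups. Cenpc1 and Uba6 lie outside the rule for named genes and were named after their values were seen.

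**Figure D3:**
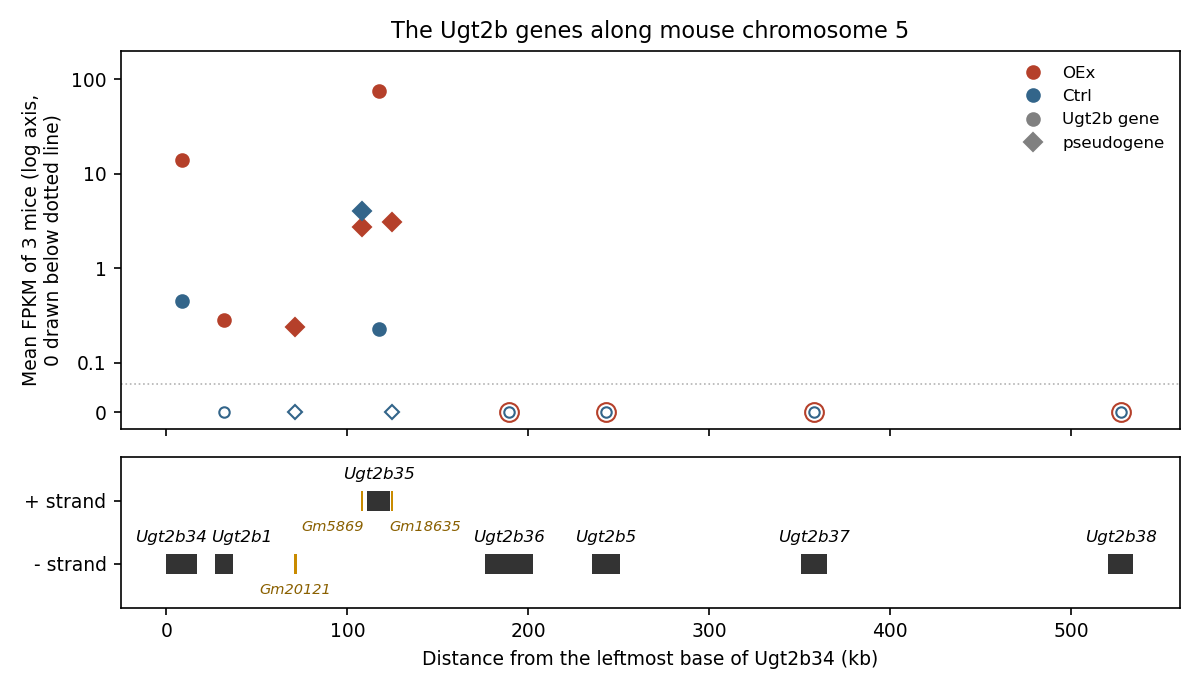
Mean FPKM of 3 OEx mice (red) and 3 Ctrl mice (blue), on a log axis with 0 below the dotted line, for the 7 Ugt2b genes and 3 pseudogenes by distance from the left end of Ugt2b34, above their places on both strands. The 3 Ugt2b genes with reads sit together at the left, and Ugt2b36, Ugt2b5, Ugt2b37 and Ugt2b38 are at 0 in both groups.

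In coding sequence the members with reads are not the most alike. Coding lengths ran from 1587 bases in Ugt2b1 and Ugt2b35 to 1596 bases in Ugt2b34, and identity over the 21 pairs ran from 73.9% to 97.0%, with the highest value for Ugt2b5 and Ugt2b38. Ugt2b35 is 86.1% to 88.5% identical to the 4 genes without reads, but 74.0% to Ugt2b34 and 74.4% to Ugt2b1. Ugt2b34 and Ugt2b1 are 76.3% identical to each other.

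RBPJ is the DNA-binding partner of N1ICD, and its core, TGGGAA, was searched on both strands of the promoters, each reaching from 250 bases before to 50 bases after the RefSeq start. It was found in 3 of 7 Ugt2b promoters, those of Ugt2b34, Ugt2b37 and Ugt2b38, and in 8397 of all 32851 promoters searched, or 25.6%. The 170 bases before the start of these 3 genes and of Ugt2b35, the most abundant member (RefSeq, GRCm38.p6, in the direction of the gene), are printed in the order of the cluster, with the core in capitals as TGGGAA or, where it lies on the other strand, TTCCCA, to show that it stands before a gene with reads and before genes without.
Ugt2b34 (chr5:86906938-86907107, minus strand): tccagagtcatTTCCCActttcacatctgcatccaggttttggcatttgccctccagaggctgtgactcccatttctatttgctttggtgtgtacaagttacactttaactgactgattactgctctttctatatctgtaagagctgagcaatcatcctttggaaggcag
Ugt2b35 (chr5:87000690-87000859, plus strand): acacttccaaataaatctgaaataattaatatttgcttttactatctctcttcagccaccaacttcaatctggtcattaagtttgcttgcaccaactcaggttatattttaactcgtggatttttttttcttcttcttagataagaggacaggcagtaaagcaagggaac
Ugt2b37 (chr5:87254789-87254958, minus strand): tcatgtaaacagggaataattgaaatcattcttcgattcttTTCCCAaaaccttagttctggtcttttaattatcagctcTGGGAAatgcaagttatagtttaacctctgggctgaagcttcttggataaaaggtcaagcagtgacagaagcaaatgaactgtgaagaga
Ugt2b38 (chr5:87424204-87424373, minus strand): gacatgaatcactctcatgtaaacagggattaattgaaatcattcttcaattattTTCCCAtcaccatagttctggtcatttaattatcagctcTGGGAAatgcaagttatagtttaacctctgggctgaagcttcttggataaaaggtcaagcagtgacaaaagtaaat
The match of Ugt2b34 begins 159 bases before the start, on the other strand. Ugt2b37 and Ugt2b38 have a match on each strand, beginning 129 and 90 bases before the start in Ugt2b37 and 115 and 76 bases before it in Ugt2b38. No match overlapped another. None was in the window of Ugt2b35, which says only that these letters are not there.

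The other genes of the pathway were read from 5 lists of enzymes, carriers and regulators, with 113 genes, of which 42 were tested, 3 were called higher and 10 lower, or 7.14% and 23.8% of those tested against 12.9% and 15.7% of all tested genes. This split turned with the scaling: 9 were called higher and 5 lower with library totals, and 4 and 8 with upper-quartile scaling. Of these lists, the other UGT enzymes had no tested gene. The list of UDP-glucuronate supply, deconjugation and efflux had 11 tested genes of 15, with 1 called higher and 3 lower, and a median log2 fold change of 0.050 against -0.078 over all tested genes. The 2 steps that make the sugar donor were not called: Ugp2, which makes UDP-glucose, was at 28.7, 27.0 and 33.4 FPKM in OEx and 19.4, 17.2 and 20.4 FPKM in Ctrl mice (log2 difference 0.62, limma FDR 0.00272), and Ugdh, which oxidises it to UDP-glucuronate, was at 1.80, 1.65 and 1.44 FPKM and 1.42, 1.74 and 1.46 FPKM (0.050, limma FDR 0.720). In FPKM the Ugp2 groups did not overlap and those of Ugdh did. Gusb, the lysosomal β-glucuronidase that splits glucuronides, fell from 39.9, 41.1 and 29.0 FPKM in Ctrl mice to 12.05, 12.6 and 11.2 FPKM in OEx mice (-1.52 ± 0.144, limma FDR 1.68e-04). The organic anion exporter Abcc4 fell from 9.48, 9.77 and 4.83 FPKM in Ctrl mice to 1.06, 1.18 and 1.301 FPKM in OEx mice (-1.997 ± 0.243, limma FDR 4.66e-04). Another exporter, Abcc5, rose by 1.27 (standard error 0.124), and the row with the phosphoglucomutase symbol Pgm2 fell by 1.46 on the log2 scale (standard error 0.111). The values of this row did not come out as whole reads with the exon length of Pgm2, 2590 bases. The symbol may therefore stand for another phosphoglucomutase gene, such as Pgm1, and which gene the row holds was not settled. Under library totals, Gusb at -0.78, the Pgm2 row at -0.73 and, of the next list, Slc35b2 at -0.82 were below the required fold, while Ugp2 at 1.36 was called higher. Under the same scaling Ugdh was also higher in OEx mice, by 0.53 (limma FDR 0.00747), which was under the required fold.

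Sulfation is the other main conjugation of steroids. Of 25 genes of sulfotransferases and sulfate donor supply, 9 were tested, with 1 called higher, 2 lower and a median of 0.0044. Papss2, which makes the activated sulfate donor, rose from 6.003, 4.67 and 6.59 FPKM in Ctrl to 23.0, 22.4 and 23.0 FPKM in OEx mice (1.83 ± 0.121, limma FDR 5.21e-05). Slc35b2, which carries that donor into the Golgi, fell by 1.58 on the log2 scale (standard error 0.0771) and Sult5a1, a cytosolic sulfotransferase, fell by 2.09 (standard error 0.245). Sult1e1, the estrogen sulfotransferase that neighbours the Ugt2b cluster, was at 4.36, 3.56 and 1.03 FPKM in OEx and 2.32, 1.49 and 4.93 FPKM in Ctrl mice, with overlapping groups.

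Of 41 listed genes of steroid-converting enzymes 13 were tested, with 0 called higher by limma, where 12.9% of all tested genes were, 4 called lower, where 15.7% were, and a median of -0.35 against -0.078 over all tested genes. At an unadjusted p under 0.05, 2 were higher and 7 lower, limma-voom called 0 higher and 6 lower, and under library totals 1 of them, Hsd17b12, was called higher. Srd5a2, a 5α-reductase that converts testosterone to dihydrotestosterone, fell from 2.54, 3.75 and 5.58 FPKM in Ctrl to 0.312, 0.245 and 0.690 FPKM in OEx mice (-1.77 ± 0.248, limma FDR 8.70e-04). Srd5a1, the other 5α-reductase of androgens, was at 0.758, 0.737 and 0.495 FPKM in OEx and 1.79, 1.96 and 2.78 FPKM in Ctrl mice, with a log2 difference of -0.92 (limma FDR 0.00216) under the required fold. It was called lower with a pseudocount of 0.1, with limma-voom and without Ctrl 1. The log2 difference of Srd5a1 was smaller under the other scalings. It was -0.77 with upper-quartile scaling, -0.73 with library totals that leave out the 20 most abundant genes and -0.50 with library totals. Hsd17b14 and Hsd17b11, hydroxysteroid dehydrogenases, fell by 1.78 and 1.18 on the log2 scale (standard errors 0.167 and 0.108), and Cyp7b1, which hydroxylates steroids and oxysterols, fell by 1.75 (standard error 0.124). The call of Hsd17b11 was missed with log2 differences of -0.91 under upper-quartile scaling, -0.85 under library totals that leave out the 20 most abundant genes and -0.43 under library totals. Hsd17b11, the last of the 4 by size, lies outside the rule for named genes and was named after its value was seen.

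The last list held 17 genes, nuclear receptors and other regulators known for UGT genes together with Notch1 and its partner Rbpj, of which 9 were tested, with 1 called higher, 1 lower and a median of 0.29. The gene called higher was Notch1, the gene over-expressed by design, whose call is therefore no result (log2 difference 3.30). Keap1, which holds the stress factor Nfe2l2 in check, fell by 1.02 (standard error 0.111), just past the required fold. Without OEx 1, Ctrl 1 or Ctrl 2 its log2 difference of -0.95, -0.95 or -0.99 missed that fold, as did -0.75 with upper-quartile scaling, -0.69 without the 20 most abundant genes and -0.28 with library totals.

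**Figure D4:**
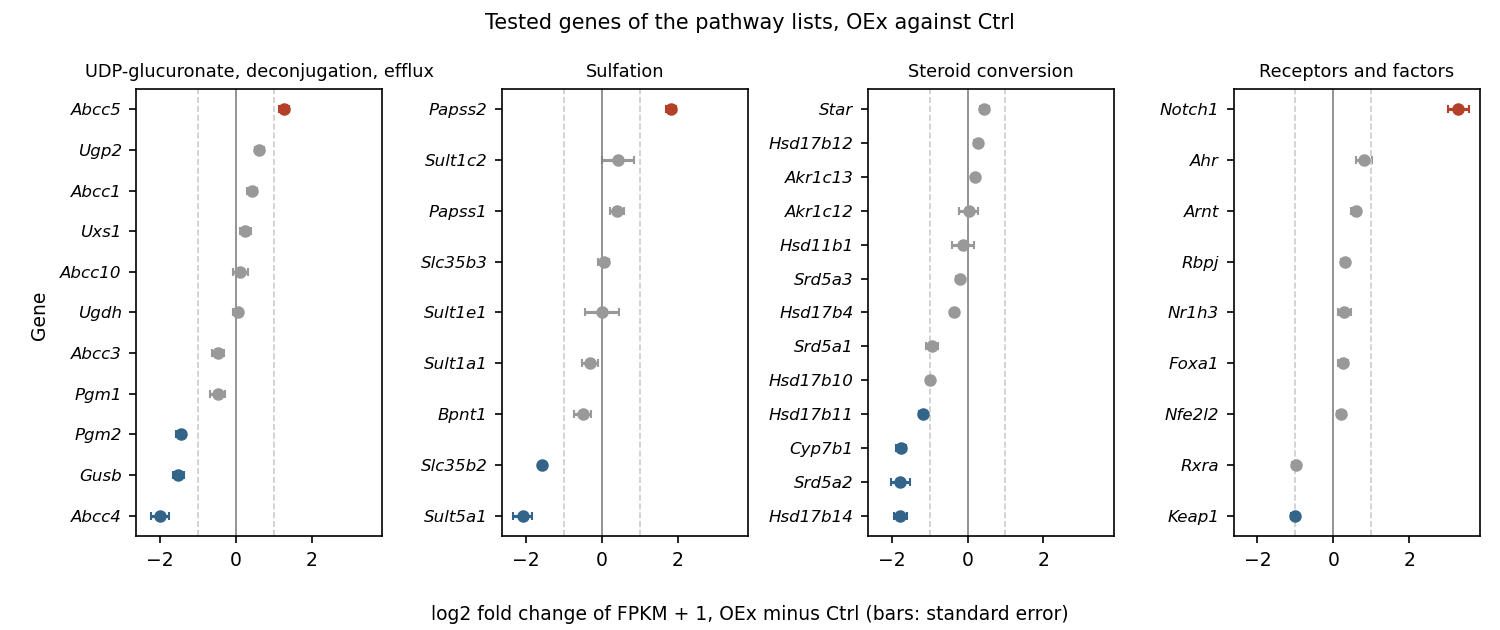
Log2 fold change of FPKM + 1, OEx minus Ctrl, with its standard error for the tested genes of 4 lists, in red where called higher, in blue where called lower and in grey where not called; dashed lines mark a 2-fold change. With the deposited scaling 10 genes are blue and 3 red, and with library totals 5 were called lower and 9 higher.

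Genes with a pattern like that of Ugt2b35 were looked for over the 6 mice by the root mean square difference of centred log2(FPKM + 1) values. The 5 nearest of the tested genes were Wfdc3, of the whey acidic protein family, at 0.295, the potassium channel gene Kcnf1 at 0.321, the Kazal-type protease inhibitors Spink11 at 0.447 and Spink5 at 0.455, and the annotated microRNA gene Gm23689 at 0.520. Wfdc3 was at 119.9, 123.4 and 197.2 FPKM in OEx and 2.15, 1.98 and 3.10 FPKM in Ctrl mice. Spink11 was the one with the steepest step to OEx 3, at 29.0, 24.9 and 155.9 FPKM. The likeness is over 6 mice in 2 groups that all these genes separate, and it is not particular to them: 658 tested genes had a Pearson correlation above 0.99 with Ugt2b35 over these mice.

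**Figure D5:**
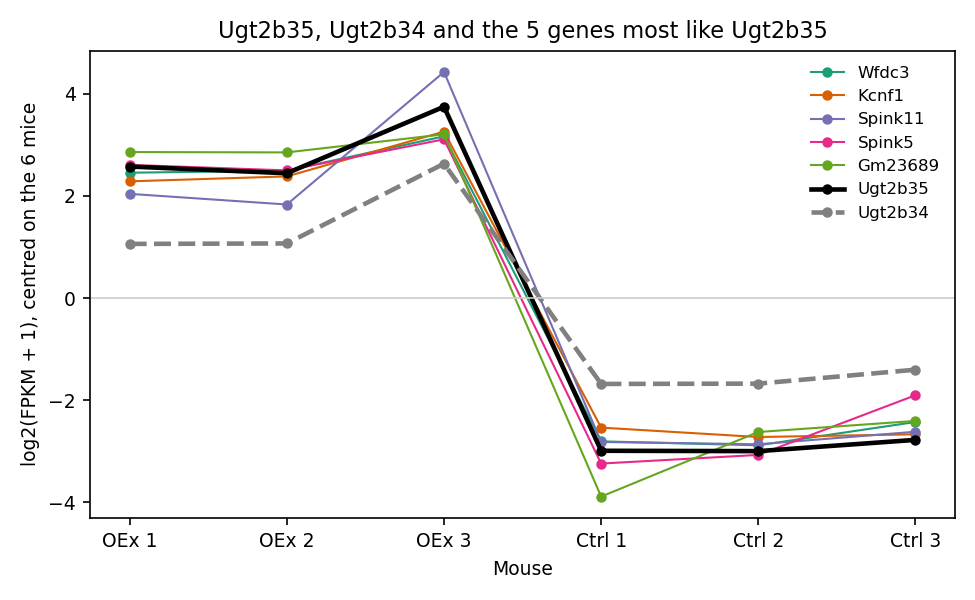
Log2(FPKM + 1) of Ugt2b35 (black), Ugt2b34 (dashed) and the 5 genes nearest to Ugt2b35, each centred on its mean over the 6 mice. All lie high in the OEx mice and low in the Ctrl mice, and Ugt2b34 has the smaller span.

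Markers of other tissues known for Ugt2b enzymes, or next to the AP, were read beside these results. Except for the immune list, their sums and calls are given with the deposited scaling only. Its denominator per read was larger in OEx than in Ctrl mice, which makes OEx values lower than library totals would. For hepatocytes 4 of 6 markers had reads, Alb and Fgb had none in any mouse, and the sum was 2.00 to 3.24 FPKM in OEx and 4.45 to 5.98 FPKM in Ctrl mice. For proximal tubules of the kidney 2 of 5 had reads, with Kap, Umod and Slc22a6 at 0 in all mice and a sum of at most 0.102 FPKM. Urothelial markers, all 5 with reads, summed to 326.0 to 552.3 FPKM in OEx and 150.3 to 201.2 FPKM in Ctrl mice. In FPKM they did not move together: of 4 tested, 2 were called higher, Upk1a and Upk3a, while Upk1b was lower in every OEx mouse. That lower level of Upk1b depends on the deposited scaling. Upk1b was at 74.7, 79.6 and 95.7 FPKM in OEx and 168.6, 168.0 and 133.8 FPKM in Ctrl mice. Its log2 difference of -0.90 (limma FDR 0.00129) was under the required fold. Krt20 was at no more than 0.0683 FPKM in any mouse. Seminal vesicle markers summed to at most 1.18 FPKM in OEx mice. For epididymis and vas deferens 2 of 5 markers had reads, with Lcn5, Lcn8 and Defb20 at 0 in all mice, and the sum was 0.939, 1.57 and 8.43 FPKM in OEx and 0.499, 0.603 and 2.73 FPKM in Ctrl mice, highest in replicate 3 of each group as for Ugt2b35 and Ugt2b34. Markers of ventral or dorsolateral prostate, all 5 with reads, summed to 1133 to 1792 FPKM in OEx and 3514 to 4627 FPKM in Ctrl mice, with 2 called higher and 3 lower, and of the 7 luminal AP markers 5 were called lower. Basal markers summed to 6.79 to 15.9 FPKM in OEx and 211.7 to 249.4 FPKM in Ctrl mice, and all 4 were called lower. Stromal markers summed to 301.5 to 543.0 FPKM in OEx and 822.3 to 1690 FPKM in Ctrl mice, with 3 of 6 called lower. The collagens Col1a1 and Col3a1 were not called and went the other way in OEx 1 and OEx 2. Col1a1 was at 75.4, 83.7 and 6.04 FPKM in OEx and 11.4, 11.5 and 18.9 FPKM in Ctrl mice. Col3a1 was at 83.9, 84.1 and 3.67 FPKM in OEx and 8.21, 7.95 and 14.7 FPKM in Ctrl mice. Immune markers summed to 12.1 to 190.6 FPKM in OEx and 26.4 to 64.9 FPKM in Ctrl mice. Of 3 tested, 0 were called by limma (0 also at an unadjusted p under 0.05 and 0 by limma-voom), but 3 of 3 were called higher without OEx 3. The part of these differences in cell content in the Ugt2b values was not tested.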

How the data were processed

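Values were FPKM, as deposited by the authors in 1 table per mouse, listed by gene symbol. The submitters' processing notes name CASAVA, HISAT2 2.0.5, featureCounts 1.5.0-p3 and StringTie 1.3.3b; the genome build and annotation are not given in the sources used here. Multiplied by GENCODE exon lengths (GRCm38), 96.9% to 97.5% of values under 1000 reads in a mouse were whole reads within 0.05, so coordinates are given for that build. This recovery gave the reads and the depth, and was tested on simulated data, where 100% of counts came out in 6 libraries. Reads may include PCR copies. Libraries differed in composition: 1 gene took 14.2% to 22.0% of Ctrl reads and at most 1.12% of OEx reads, and the FPKM denominator was 0.726 to 0.815 of the reads in Ctrl and 1.22 to 1.34 in OEx mice. In both groups the most alike pair was replicate 1 with replicate 2, at a mean chi-square per gene of 3.69 in OEx and 2.94 in Ctrl mice against 54.4 to 94.9 for pairs with replicate 3. They were kept as separate mice as labelled; repeat libraries of 1 sample could also exceed counting noise.

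The groups were compared on log2(FPKM + 1) by limma 3.58.1 (R 4.3.3), group as the only term, over rows whose mean was 1 FPKM or more. FDR and fold criteria follow the study. With 3 mice per group, exact permutation allows no p below 0.1. FDR values rest on the spread between these libraries. Replicates are only said to be separate samples, so this is a spread between mice only if each library came from its own mouse. Members and lists were chosen with earlier results of these data known. Named genes were the members, Ugp2, Ugdh, Gusb, Srd5a1, Srd5a2 and Notch1, the called genes of each list (up to 3 per direction), called protein-coding genes within 1 Mb of the cluster and the 5 genes most like Ugt2b35. Sts and Hsd17b8 were not analysed here, and a few listed genes are not reported here. Coding identity came from pairwise alignment in Biopython 1.88, similarity from blastn 2.17.0, and plots from matplotlib 3.10.9. Alternatives were other scalings, pseudocounts and filters, limma-voom on recovered reads, the replicate number as a block and each mouse left out.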

Additional observations from a re-analysis of the deposited data

How the results depend on the processing

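The log2 fold changes of Ugt2b35 and Ugt2b34, a description since the genes were chosen for this difference, ran from 5.43 to 8.26 and from 2.65 to 4.73 over the reported fit and 14 alternatives. The largest values came with limma-voom, and a pseudocount of 0.1 gave 7.78 and 4.49, since the added 1 weighs most on genes near 0. Leaving out each mouse in turn gave 5.43 to 6.09 and 2.65 to 3.44, lowest without OEx 3. Without a filter Ugt2b1 had a log2 difference of 0.35. Counts over all genes moved with the scaling: 4123 higher and 565 lower with library totals, 2609 and 1168 when those totals leave out the 20 most abundant genes, and 2380 and 1312 with upper-quartile scaling. With a mean of at least 5 FPKM fewer genes were tested, 681 were called higher, and the lists of UDP-glucuronate supply and of steroid-converting enzymes kept 2 and 1 called genes. With library totals 4 receptors and factors were called, and 1 to 3 when each mouse was left out. The other 3 lists with tested genes stayed within 1.5 times their counts when each mouse was left out, and over all genes 1577 to 1752 were then called higher and 1986 to 2046 lower. Of the named genes outside the family, with Hsd17b11 but without Cenpc1 and Uba6, 5 lost their call in 12 cases, and 2 gained one in 4. With replicate as a block in the fit, 1611 genes were called higher and 1986 lower, and no call of a named gene changed. Same-numbered mice did not deviate together from their group means (correlation -0.307 to -0.189). Whether the numbers pair the mice is not decided by this, since replicate 3 stood apart in both groups and weighs on these deviations. Papss2 and Pgm2, whose values did not come out as whole reads, were not tested with limma-voom. Depth limits Ugt2b35 and Ugt2b34 in Ctrl mice, with 7 to 42 reads, and Ugt2b1 in all mice.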
